A study of Homo sapiens with 14 samples.

Results

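Transcript levels of 31 genes of homologous recombination and the Fanconi anemia pathway were followed in PANC-1 cells exposed to proanthocyanidins. The genes were chosen by name for their known roles, with earlier results of these data known. They come from 28120 genes in the table of read counts, and all 31 were measured and passed the filter on low counts. PANC-1 is an established human pancreatic cancer line, here at passages 3 to 5. Proanthocyanidins (PA) are plant polyphenols built of linked flavanol units, and DMSO is the vehicle. The 14 libraries fall into 7 groups of 2 replicates: PA at 20 μg/ml for 3, 12 or 24 h, DMSO for 3, 12 or 24 h, and DMSO at 0 h. All groups are this 1 line, and the labels name no engineered allele.

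Homologous recombination repairs a broken chromosome by copying an intact sister. Nucleases trim the broken ends to single strands, BRCA2 and its partners prepare them to pair with the sister, and translocases and helicases then move and resolve the joined strands. The Fanconi pathway deals with strands that are crosslinked to each other: a core complex attaches ubiquitin to FANCD2 and FANCI, and the lesion is then cut and handed to homologous recombination. Both pathways work mainly in S and G2 phase, and inherited loss of BRCA2, PALB2 or BRCA1 predisposes to pancreatic cancer.

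Libraries held 26403984 to 35213154 reads counted in genes, and a count of 0 allows up to 3 reads, or 0.0852 to 0.114 CPM (counts scaled to TMM library size), which covers counting error only. Of all genes, 15181 were tested, and the biological coefficient of variation between replicates came to 15.1%. Whether the 2 replicates of a group were grown as separate cultures is not stated, and p-values then measure only how far these libraries spread, which may be technical. The keratins KRT8, KRT18 and KRT19 were at 519 to 10600 CPM and VIM at 1550 to 2860 CPM, while EPCAM was low at 3.85 to 7.79 CPM. Of the same epithelial and ductal list, KRT7 at 6.3 to 21 CPM and CDH1 at 0.274 to 1.34 CPM were also low, and SOX9 was at 116 to 186 CPM. All measured acinar and endocrine markers had 8 reads or fewer over the 14 libraries, and CDKN2A, a gene known to be deleted in this line, had 6 reads in total. The replicates of PA at 12 h differed more from each other than in other groups (Spearman correlation over all tested genes 0.978, against 0.989 to 0.996). In this group 24 of the 31 genes were lower in replicate 1 than in replicate 2, a count not made over all genes. The median absolute log2 difference between these replicates was 0.652 for the 31 genes and 0.415 over all tested genes. Values are therefore given for each library. Log2 changes are PA over DMSO ± SE and adjusted p-values come from edgeR's quasi-likelihood test over all 15181 genes, with n = 2 per group and a threshold of 0.05.

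Promoters are shown for the 3 genes with the largest falls at 12 h, BRCA2, XRCC2 and FANCM, and for RAD51D, whose log2 change at 12 h was the smallest in size. Each line gives 250 bases before to 50 after the start of the gene (RefSeq, GRCh38.p14), read 5′ to 3′ on the gene's own strand. Capitals mark matches to a motif of 2 kinds of cell cycle regulators or to a CCAAT box, searched on both strands.
BRCA2, chr13:32315258-32315557, plus strand: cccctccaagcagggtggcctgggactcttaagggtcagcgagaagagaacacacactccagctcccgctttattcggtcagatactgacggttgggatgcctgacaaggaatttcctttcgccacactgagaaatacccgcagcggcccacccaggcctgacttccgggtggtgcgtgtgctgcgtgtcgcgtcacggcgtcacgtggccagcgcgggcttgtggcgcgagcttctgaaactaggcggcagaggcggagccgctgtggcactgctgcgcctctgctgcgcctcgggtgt
XRCC2, chr7:152676092-152676391, minus strand: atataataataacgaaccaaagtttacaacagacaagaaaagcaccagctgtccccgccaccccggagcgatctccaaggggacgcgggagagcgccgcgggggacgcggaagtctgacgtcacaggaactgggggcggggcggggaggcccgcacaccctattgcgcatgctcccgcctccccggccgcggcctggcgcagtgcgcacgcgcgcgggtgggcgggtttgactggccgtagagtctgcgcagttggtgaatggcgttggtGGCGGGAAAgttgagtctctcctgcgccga
FANCM, chr14:45135680-45135979, plus strand: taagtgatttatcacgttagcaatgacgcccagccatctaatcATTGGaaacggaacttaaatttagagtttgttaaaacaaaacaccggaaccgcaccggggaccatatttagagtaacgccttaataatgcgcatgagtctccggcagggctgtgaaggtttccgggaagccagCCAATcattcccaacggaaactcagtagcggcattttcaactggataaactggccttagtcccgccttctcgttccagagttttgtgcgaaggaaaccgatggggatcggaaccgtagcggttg
RAD51D, chr17:35119709-35120008, minus strand: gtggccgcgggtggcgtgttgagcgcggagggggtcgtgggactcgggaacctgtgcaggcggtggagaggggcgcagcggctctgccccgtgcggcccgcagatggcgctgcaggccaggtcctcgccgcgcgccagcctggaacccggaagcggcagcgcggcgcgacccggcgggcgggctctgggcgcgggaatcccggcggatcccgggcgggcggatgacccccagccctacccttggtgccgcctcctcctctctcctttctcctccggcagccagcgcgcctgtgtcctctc
The capitals in XRCC2 are 2 overlapping matches to E2F motifs, in reverse orientation and downstream of the start, and those in FANCM are 2 CCAAT boxes, 1 on each strand. BRCA2 and RAD51D hold no match in these windows.

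The table of promoters held 27 of the 31 genes. E2F motifs (TTTCCCGC, TTTGGCGC or TTCCCGCC, which can overlap each other) bind the factors that switch on S phase genes. They were found in 10 of 27 promoters (37%), against 7.29% of 10046 promoters of tested genes and 4.61% of all 27305. CHR motifs (TTTGAA or TTCGAA), the element of G2 and mitosis genes, were in 4 of 27 (14.8%), against 10.9% of tested genes' promoters and 16.6% of all. The CCAAT box was in 11 of 27 (40.7%), against 36.3% of tested genes' promoters and 35.7% of all. E2F motifs stood in 8 of 21 promoters of genes called lower at 12 h and in 2 of 6 of those not called. A match describes these letters only.

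In DMSO cells the genes spanned a wide range of levels per transcript length. The mean RPKM (the authors' read level per gene length and library size) over the 8 DMSO libraries was highest for UBE2T, the enzyme that passes ubiquitin to the FANCD2 and FANCI pair, at 69.97 (57.56 to 90.19). FANCI at 21.8 RPKM and RBBP8 at 20.5 RPKM followed, with ranges over the libraries that overlap. The lowest were RAD51D at 1.02 RPKM and RAD51B at 0.688 RPKM. BRCA2 at 1.72, FANCM at 1.70 and BRIP1 at 1.48 RPKM were also in the lower part of the range, and their order cannot be told apart from their spread.

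At 12 and 24 h most of these genes fell with PA and none rose. At 12 h, 24 of 31 were lower and 0 higher, and at 24 h 25 were lower and 0 higher. Over all tested genes 24.1% were lower and 24.4% higher at 12 h, and 27.5% lower and 27.2% higher at 24 h. The median log2 change of the 31 genes was -1.35 at 12 h and -1.61 at 24 h, against 0.00792 and -0.00823 over all genes. A fall of at least 2-fold, counted with no test, was seen for 20 genes at 12 h and 24 at 24 h, against 14.9% and 17.5% of all genes. The 31 genes' summed level was 390 ± 88.3 CPM with PA and 931 ± 27.2 CPM with DMSO at 12 h (SD, n = 2 each), and 309 ± 12.6 CPM with PA and 1006 ± 21.5 CPM with DMSO at 24 h. In bulk RNA, fewer cells that express a gene and less of its RNA per cell cannot be told apart.

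**Figure D1:**
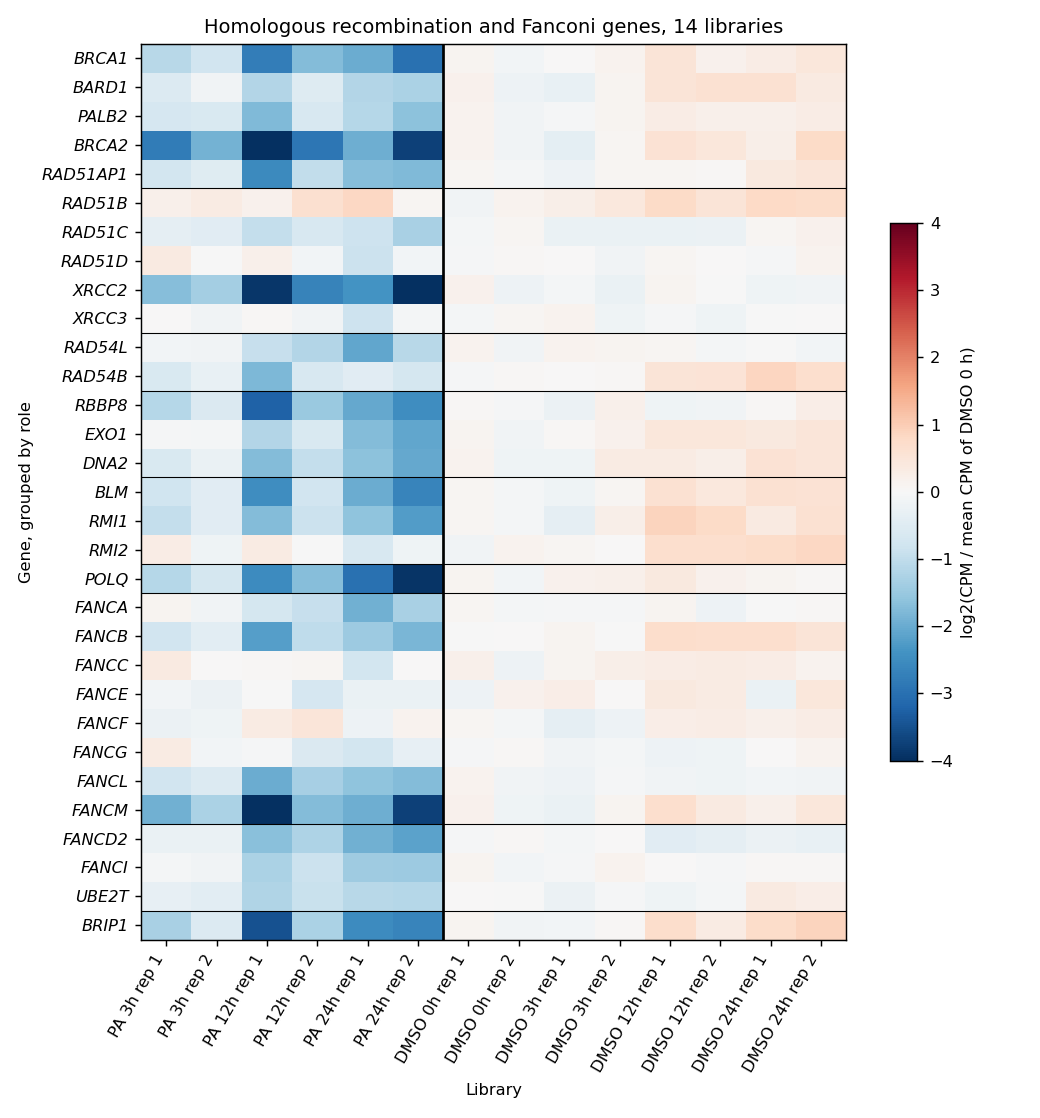
Log2 ratio of each gene's CPM to its mean in the 2 DMSO libraries at 0 h, by library (columns; PA left and DMSO right of the vertical line) and gene (rows, with lines between roles). The PA libraries at 12 and 24 h are blue for most rows, with rows such as RAD51B, XRCC3, FANCC and FANCF near white, and the summed level of the genes was 309 ± 12.6 CPM with PA and 1006 ± 21.5 CPM with DMSO at 24 h.

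The mediators, BRCA1, BRCA2 and their partners, all fell, with the largest change of them at 12 h in BRCA2. BRCA2, which prepares single-stranded DNA for strand exchange, lies on the plus strand of chromosome 13 (32315474 to 32400266, GRCh38, GENCODE 29; ENSG00000139618.13). At 12 h it had 0.36 and 2.43 CPM in PA cells, against 26.8 and 24.6 CPM in DMSO cells. At 24 h it had 4.69 and 1.36 CPM in PA cells, against 21.2 and 30.5 CPM in DMSO cells. Every PA library lay far below every DMSO library, and the PA replicates themselves differed several-fold at both times. The change was -4.20 ± 0.597 at 12 h (adjusted p = 0.000166) and -3.09 ± 0.546 at 24 h (adjusted p = 0.000426). Only 10 and 68 reads stand behind the PA values at 12 h. Without PA 12 h replicate 1 the change at 12 h was -3.4, and without replicate 2 it was -6.14. At 24 h it was -4.24 without PA replicate 1 and -2.46 without replicate 2, and all of these passed the threshold.

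BRCA1, a ubiquitin ligase subunit that favours recombination over end joining, had 6.40 and 12.97 CPM in PA cells at 12 h, against 61.6 and 49.2 CPM in DMSO cells. The 24 h values were 11.0 and 5.51 CPM in PA cells, against 53.2 and 59.2 CPM in DMSO cells. The groups did not overlap at either time, and the change was -2.52 ± 0.318 at 12 h (adjusted p = 7.45e-05; -3.11 without PA 12 h replicate 2) and -2.77 ± 0.322 at 24 h (adjusted p = 2.37e-05). BARD1, its obligate partner, changed by -1.37 ± 0.233 at 12 h (adjusted p = 0.000537) and by -1.73 ± 0.238 at 24 h. PALB2, which bridges BRCA1 and BRCA2, changed by -1.35 ± 0.274 at 12 h (adjusted p = 0.00157; -2.02 without PA 12 h replicate 2) and by -1.61 ± 0.277 at 24 h. RAD51AP1, which stimulates strand invasion, changed by -1.63 ± 0.324 at 12 h and -2.18 ± 0.328 at 24 h. At 12 h RAD51AP1 stood at -1.04 without PA replicate 1 and at -2.6 without replicate 2. Thus all 5 genes of this role were called lower at both times, though BARD1 at 12 h was at -0.347 and no longer called once GC content and transcript length were corrected for (adjusted p = 0.0626).

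XRCC2, XRCC3, RAD51B, RAD51C and RAD51D, which form complexes that assist strand exchange, differed in their changes: 2 of 5 fell and 3 were not called. XRCC2 (minus strand of chromosome 7, 152644779 to 152676165) had 0.755 and 1.75 CPM in PA cells at 12 h, against 12.1 and 11.0 CPM in DMSO cells. At 24 h it had 2.15 and 0.593 CPM in PA cells, against 9.96 and 10.1 CPM in DMSO cells. XRCC2 was low in all 4 of these PA libraries and close to constant in DMSO. It changed by -3.20 ± 0.412 at 12 h (adjusted p = 8.58e-05; -3.92 without PA 12 h replicate 2) and by -2.87 ± 0.406 at 24 h (adjusted p = 9.32e-05; -4.07 without PA 24 h replicate 1 and -2.22 without replicate 2).

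RAD51D, the partner of XRCC2 in the BCDX2 complex, had 12.3 and 10.1 CPM in PA cells at 12 h, against 11.4 and 10.8 CPM in DMSO cells. The ranges overlapped, and the change was 0.01 ± 0.22 (adjusted p = 0.97). At 24 h RAD51D had 5.92 and 10.0 CPM in PA cells, against 10.6 and 12.0 CPM in DMSO cells, a change of -0.50 ± 0.223 that did not pass (adjusted p = 0.0709). RAD51B, another member of that complex, changed by -0.20 ± 0.27 at 12 h and -0.25 ± 0.267 at 24 h, and neither passed (adjusted p = 0.561 and 0.445). XRCC3, which pairs with RAD51C in a complex of their own, had 13.9 and 12.3 CPM in PA cells at 12 h, against 13.01 and 12.0 CPM in DMSO cells. Its change was 0.07 ± 0.215 at 12 h (adjusted p = 0.816; -0.613 and called after the correction for GC content and length below) and -0.41 ± 0.216 at 24 h (adjusted p = 0.125). RAD51C, which belongs to both complexes, changed by -0.54 ± 0.167 at 12 h (adjusted p = 0.0171) and by -1.17 ± 0.169 at 24 h (adjusted p = 0.000104). Its call at 12 h was lost without DMSO 12 h replicate 1 (adjusted p = 0.0694), DMSO 12 h replicate 2 (0.0847) or PA 12 h replicate 1 (0.126) and in a fit of the 4 libraries alone (0.0959), and with the correction for GC content and length it stood at -0.0517 (adjusted p = 0.785). Exons of RAD51D overlap the readthrough gene RAD51L3-RFFL on the same strand, so reads may be shared whether or not strand was used in counting. Exons of XRCC3 overlap KLC1 on the other strand, so reads may be shared there if strand was not used.

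Both RAD54 translocases, motors that remodel DNA during strand exchange, fell. RAD54L had 8.13 and 6.93 CPM in PA cells at 12 h, against 16.3 and 14.6 CPM in DMSO cells, and 3.70 and 7.22 CPM in PA cells at 24 h, against 15.3 and 14.4 CPM in DMSO cells. It changed by -1.04 ± 0.234 at 12 h (adjusted p = 0.0029) and -1.44 ± 0.238 at 24 h. RAD54B changed by -1.63 ± 0.264 at 12 h (adjusted p = 0.000393; -2.31 without PA 12 h replicate 2) and -1.34 ± 0.259 at 24 h.

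The 3 genes of end resection, the trimming step that commits a break to recombination, all fell at both times. RBBP8 encodes CtIP, which starts resection with the MRE11 complex, and EXO1 and DNA2 are the long-range nucleases. EXO1 (plus strand of chromosome 1, 241847967 to 241895148) had 23.4 and 34.3 CPM in PA cells at 12 h, against 71.6 and 72.4 CPM in DMSO cells. The 24 h values were 16.0 and 12.6 CPM in PA cells, against 69.5 and 74.0 CPM in DMSO cells. No library of one treatment reached the range of the other, and the PA libraries at 24 h were the lowest. EXO1 changed by -1.32 ± 0.18 at 12 h (adjusted p = 0.000127) and by -2.33 ± 0.188 at 24 h, where its adjusted p of 2.13e-06 was the smallest of the 31 genes. RBBP8 changed by -1.97 ± 0.386 at 12 h (adjusted p = 0.00128) and -2.40 ± 0.392 at 24 h. At 12 h RBBP8 stood at -1.34 without PA replicate 1 and at -3.08 without replicate 2. DNA2 changed by -1.57 ± 0.251 at 12 h and -2.37 ± 0.259 at 24 h.

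BLM and RMI1, which with a topoisomerase take joined chromosomes apart without crossing over, fell at both times, and RMI2, the smallest partner, was called at 24 h. BLM had 5.47 and 18.1 CPM in PA cells at 12 h, against 46.9 and 40.5 CPM in DMSO cells, and 7.79 and 4.88 CPM in PA cells at 24 h, against 46.7 and 45.4 CPM in DMSO cells. BLM was below DMSO in all of these libraries, with PA replicate 1 the lower one at 12 h. It changed by -1.89 ± 0.374 at 12 h (adjusted p = 0.00134; -1.26 without PA 12 h replicate 1 and -2.99 without replicate 2) and -2.86 ± 0.393 at 24 h (adjusted p = 7.51e-05). RMI1 changed by -2.06 ± 0.295 and -2.37 ± 0.307. RMI2 changed by -0.52 ± 0.215 at 12 h, which did not pass (adjusted p = 0.0586), and by -1.16 ± 0.219 at 24 h, which did (adjusted p = 0.000689).

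POLQ, the polymerase of the error-prone end joining that serves as a backup for recombination, lies on the minus strand of chromosome 3 (121431427 to 121546641). It had 6.01 and 10.5 CPM in PA cells at 12 h, against 45.9 and 39.3 CPM in DMSO cells. At 24 h it had 4.41 and 2.27 CPM in PA cells, against 37.2 and 35.7 CPM in DMSO cells. The change was -2.36 ± 0.277 at 12 h (adjusted p = 4.44e-05) and -3.45 ± 0.298 at 24 h (adjusted p = 3.25e-06).

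**Figure D2:**
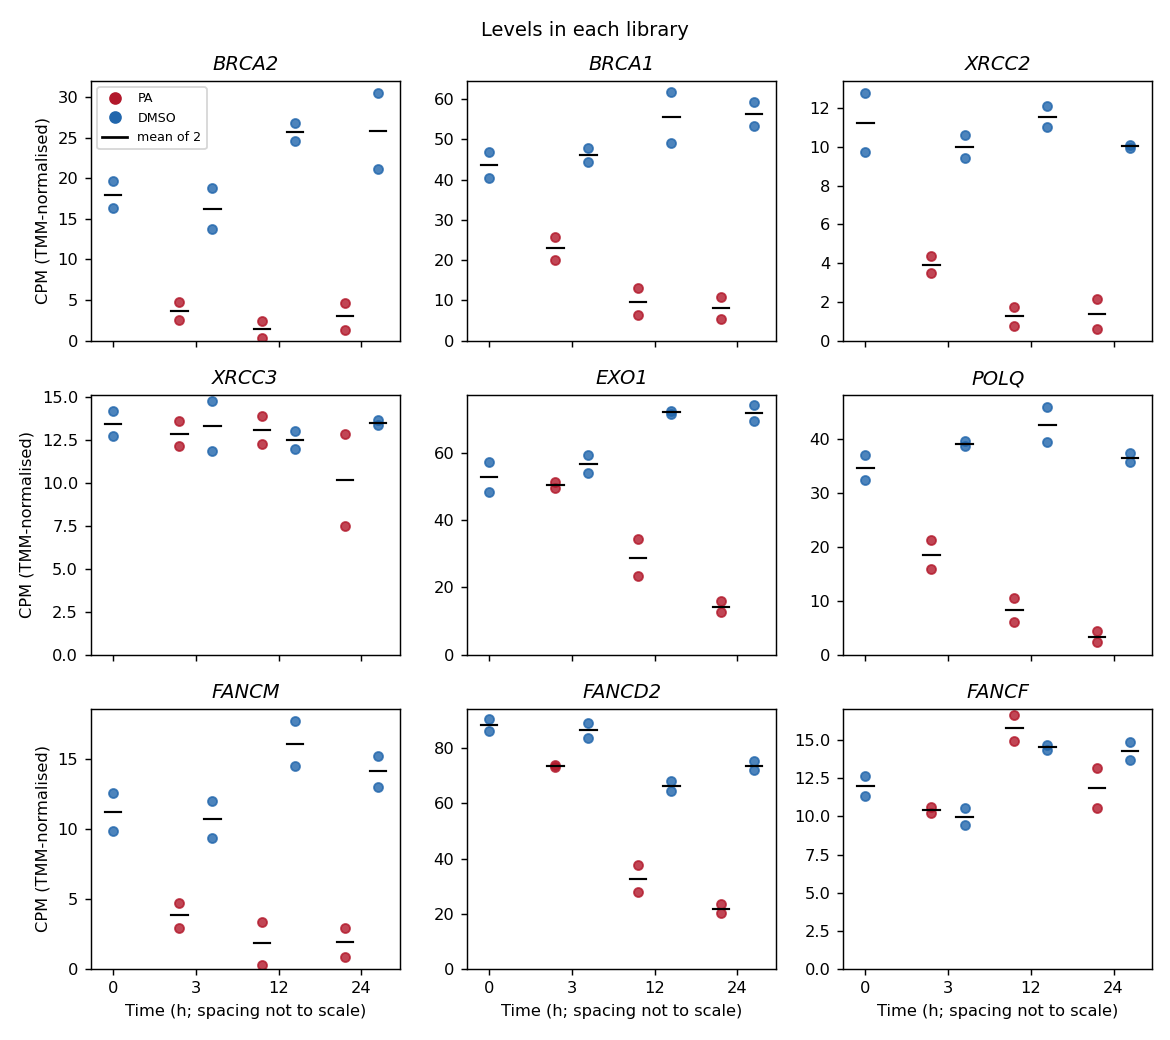
CPM of 9 of the genes in each library by time in hours, with PA (red) left of DMSO (blue) at 3, 12 and 24 h, DMSO alone at 0 h, and bars for the mean of 2. BRCA2, XRCC2, FANCM and POLQ are near the bottom of their panels in PA libraries at 12 and 24 h, while XRCC3 and FANCF lie close to DMSO, with log2 changes of 0.07 (-0.613 after correction for GC content and length) and 0.12 at 12 h.

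The Fanconi core complex, the ubiquitin ligase of the pathway, showed the widest range within a role, from FANCM to FANCF. FANCM, the translocase that anchors the core complex on DNA (plus strand of chromosome 14, 45135940 to 45200890), had 0.288 and 3.36 CPM in PA cells at 12 h, against 17.7 and 14.5 CPM in DMSO cells. The 24 h values were 2.93 and 0.837 CPM in PA cells, against 13 and 15.3 CPM in DMSO cells. All PA libraries were far below DMSO, but only 8 and 94 reads stand behind the PA values at 12 h. FANCM changed by -3.14 ± 0.621 at 12 h (adjusted p = 0.00134; -2.26 without PA 12 h replicate 1 and -5.78 without replicate 2). The change at 24 h was -2.91 ± 0.617 (adjusted p = 0.00146; -4.07 without PA 24 h replicate 1 and -2.27 without replicate 2).

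FANCL, the subunit that carries the ligase activity, had 11.5 and 18.1 CPM in PA cells at 12 h, against 41.2 and 40.4 CPM in DMSO cells, and changed by -1.47 ± 0.192 at 12 h (adjusted p = 9.64e-05) and -1.54 ± 0.192 at 24 h. FANCB, its scaffold partner encoded on the X chromosome, changed by -2.17 ± 0.297 (adjusted p = 0.000128; -2.87 without PA 12 h replicate 2) and -2.22 ± 0.299. FANCA, the core subunit most often mutated in Fanconi anemia, changed by -0.77 ± 0.216 at 12 h (adjusted p = 0.00979) and -1.60 ± 0.225 at 24 h. The FANCA call at 12 h was lost without DMSO 12 h replicate 1 (adjusted p = 0.0826) and in a fit of the 4 libraries alone (0.0556). Its exons overlap ZNF276 on the other strand.

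The remaining core subunits changed little or near the threshold without a correction for GC content and length. With that correction, given below, FANCE and FANCG were called lower at both times. FANCF, an adaptor encoded by a single exon, had 15.0 and 16.7 CPM in PA cells at 12 h, against 14.3 and 14.7 CPM in DMSO cells, the only one of the 31 genes with both PA libraries above both DMSO libraries. Its change of 0.12 ± 0.157 did not pass (adjusted p = 0.542), and at 24 h it was -0.27 ± 0.158 (adjusted p = 0.166). FANCC, which forms a subcomplex with FANCE and FANCF, changed by -0.25 ± 0.221 at 12 h and -0.52 ± 0.224 at 24 h, and neither passed (adjusted p = 0.362 and 0.0646). FANCE, the subunit that contacts FANCD2, passed at 12 h at -0.67 ± 0.26 (adjusted p = 0.0471) and not at 24 h at -0.38 ± 0.26 (adjusted p = 0.226). Its call at 12 h was lost without DMSO replicate 1 (adjusted p = 0.143), DMSO replicate 2 (0.0956) or PA replicate 2 (0.254), and also with a replicate block (0.0608) and in a fit of the 4 libraries alone (0.0949). FANCG, which stabilises FANCA, changed by -0.10 ± 0.198 at 12 h (adjusted p = 0.697) and fell by 0.59 ± 0.199 at 24 h (adjusted p = 0.0226). That call was lost without DMSO 24 h replicate 1 (adjusted p = 0.0547), DMSO 24 h replicate 2 (0.112) or PA 24 h replicate 1 (0.188).

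The substrates of the core complex and their ubiquitin-conjugating enzyme fell at both times. FANCD2, whose ubiquitination is the central step of the pathway, had 27.8 and 37.5 CPM in PA cells at 12 h, against 64.7 and 68.3 CPM in DMSO cells, and 23.4 and 20.2 CPM in PA cells at 24 h, against 75.3 and 72.1 CPM in DMSO cells. It changed by -1.03 ± 0.151 at 12 h (adjusted p = 0.00021) and by -1.76 ± 0.154 at 24 h (adjusted p = 3.6e-06). FANCI, its partner in the clamp on DNA, changed by -1.04 ± 0.151 and -1.48 ± 0.152. UBE2T changed by -0.91 ± 0.138 and -1.43 ± 0.14, so these abundant transcripts had smaller log2 changes than BRCA2 or FANCM but tighter errors.

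BRIP1, also known as FANCJ, a helicase that binds BRCA1, had 0.755 and 3.50 CPM in PA cells at 12 h, against 13.8 and 10.6 CPM in DMSO cells. At 24 h it had 1.48 and 1.36 CPM in PA cells, against 14.1 and 15.6 CPM in DMSO cells. BRIP1 was low in every PA library of both times and changed by -2.52 ± 0.432 at 12 h (adjusted p = 0.000556; -1.8 without PA 12 h replicate 1 and -4 without replicate 2). The change at 24 h was -3.39 ± 0.453 (adjusted p = 6.28e-05).

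Across roles, 23 genes were called lower at both 12 and 24 h, FANCE at 12 h alone, and RMI2 and FANCG at 24 h alone. RAD51B, RAD51D, XRCC3, FANCC and FANCF were called at no time. These sets come from the fit without correction for GC content and length. With that correction FANCE, RMI2, FANCG and XRCC3 were called lower at both times, and BARD1 and RAD51C at 24 h alone. Counted without a test, the PA libraries both lay below the lower DMSO library for 26 of 31 genes at 12 h and 29 at 24 h, against 37.8% and 40% of all genes, and above the higher one for 1 gene at 12 h and 0 at 24 h, against 37.3% and 39%.

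**Figure D3:**
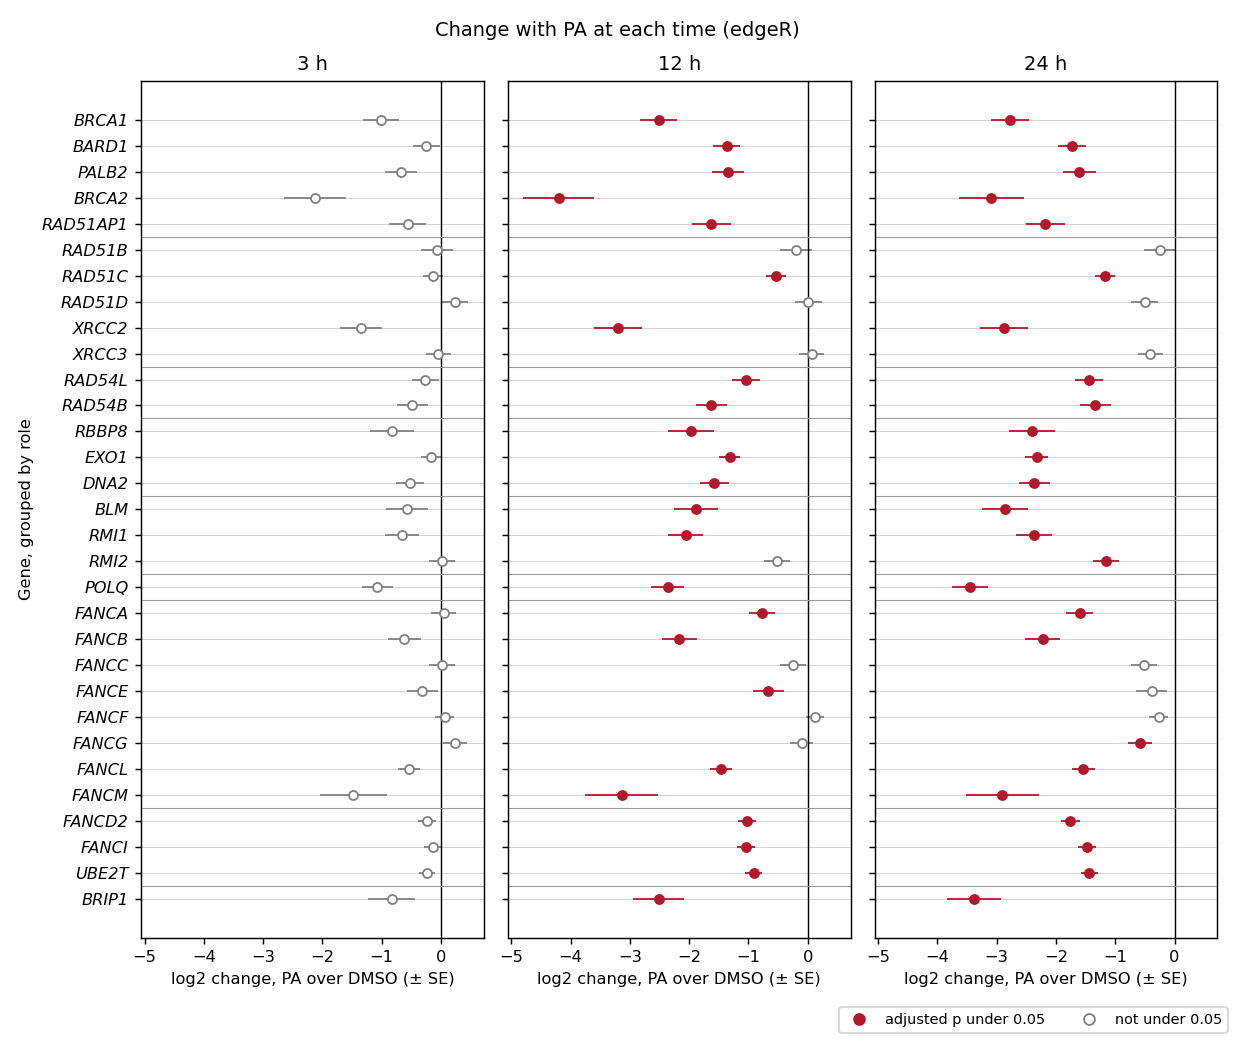
Log2 change with PA over DMSO (points) ± SE (bars) for the 31 genes, grouped by role, at 3, 12 and 24 h, with filled points for adjusted p under 0.05. At 3 h no point is filled, at 12 h 24 are and at 24 h 25 are, all of them left of 0.

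At 3 h no gene of the 31 passed in either direction with edgeR, where 1.58% of all genes were lower and 0.138% higher, yet many already lay low. An unadjusted p under 0.05 was reached by 11 genes, all lower, against 10.2% of all genes lower. DESeq2 called 3 lower, against 397 of 13945 genes. The PA libraries both lay below the lower DMSO library for 22 of 31 genes and above the higher one for 0, against 27.9% and 26.7% of all genes. The median change was -0.31, against -0.0055 over all genes. BRCA2 had 2.56 and 4.82 CPM in PA cells at 3 h, against 13.7 and 18.8 CPM in DMSO cells, a change of -2.13 ± 0.523 (adjusted p = 0.0614). POLQ had 15.8 and 21.1 CPM in PA cells, against 38.6 and 39.5 CPM in DMSO cells (-1.08 ± 0.261, adjusted p = 0.0576), the smallest adjusted p at this time. XRCC2 (-1.35 ± 0.359, adjusted p = 0.0835), FANCM (-1.48 ± 0.566, adjusted p = 0.223) and BRCA1 (-1.01 ± 0.299, adjusted p = 0.122) also had at least 2-fold lower means. EXO1, by contrast, had 51.3 and 49.6 CPM in PA cells, against 54.0 and 59.2 CPM in DMSO cells (-0.17 ± 0.177, adjusted p = 0.642). The count of calls at 3 h was 4 after correction for GC content and length (BRCA1, BRCA2, XRCC2 and POLQ), 8 with no filter on low counts and 10 in a fit of the 4 libraries alone, where 2.54%, 3.05% and 6.58% of all genes were lower.

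The difference of the PA effects between times was tested directly. The effect at 12 h minus that at 3 h was -1.15 ± 0.251 for EXO1 (adjusted p = 0.029) and -0.90 ± 0.211 for FANCI (adjusted p = 0.0392), so both fell further by 12 h. These 2 were the genes of the 31 past the threshold, where 0.685% of all genes were called lower and 2.1% higher. Neither passed once any 1 library of PA at 3 h, DMSO at 3 h or DMSO at 12 h was left out. The median difference of the 31 genes was -0.926, and it was -0.702 without PA 12 h replicate 1 and -1.35 without replicate 2. Over all genes these medians were 0.0145, -0.011 and 0.0121. With a replicate block EXO1 passed (adjusted p = 0.0479) and FANCI did not (adjusted p = 0.061), and neither did with limma on RPKM. For BRCA2 the difference was -2.07 ± 0.778 and did not pass (adjusted p = 0.141). From 12 to 24 h no gene passed with edgeR, where 0.158% of all genes were called lower and 0.263% higher. In that difference 7 had an unadjusted p under 0.05, all lower, against 4.74% of all genes lower, and DESeq2 called 1 (65 of 13400 genes). The smallest adjusted p was that of EXO1 (-1.01 ± 0.254, adjusted p = 0.138), so genes called at one of these times and not the other, such as RMI2, FANCE and FANCG, were not shown to differ between them.

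In DMSO alone none of the 31 genes was called at 3, 12 or 24 h against 0 h with edgeR. Over all genes 0% were called at 3 h, 1.13% lower and 0.323% higher at 12 h, and 1.93% lower and 0.527% higher at 24 h. These comparisons share the DMSO libraries at 0 h, and those at later times serve as the controls of PA. Median changes of the 31 genes were -0.02 at 3 h, 0.29 at 12 h and 0.25 at 24 h. An unadjusted p under 0.05 was reached by 0 genes at 3 h, 1 lower and 6 higher at 12 h, and 8 higher at 24 h, against 7.36% of all genes higher at 12 h and 6.45% at 24 h. A fit of the 4 libraries of a comparison alone called 10 higher at 12 h and 14 at 24 h, against 9.88% and 8.31% of all genes. DESeq2 called 0 at 3 h, 0 at 12 h and 1 higher at 24 h (226 of 13400 genes higher). RMI2 had 9.65 and 10.4 CPM in DMSO at 24 h, against 5.26 and 6.46 CPM at 0 h, the smallest adjusted p of these comparisons (0.77 ± 0.214, adjusted p = 0.0787). RMI2 in PA cells at 24 h, with 3.74 and 5.23 CPM, lay far below its time-matched DMSO. Both values were also below those at 0 h, by a smaller margin that was not tested.

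The PA libraries at 12 h differed in the size of the fall. Against the DMSO mean of the same time, the median of the 31 genes at 3 h was -0.443 in PA replicate 1 and -0.332 in replicate 2. At 12 h the medians were -1.74 in replicate 1 and -1.07 in replicate 2, and at 24 h -1.67 in replicate 1 and -1.76 in replicate 2. At 12 h 27 genes lay below the DMSO mean in replicate 1 and 29 in replicate 2, and at 24 h 30 and 31 did. The matching shares over all genes were not counted, so these numbers describe the 31 genes only.

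**Figure D4:**
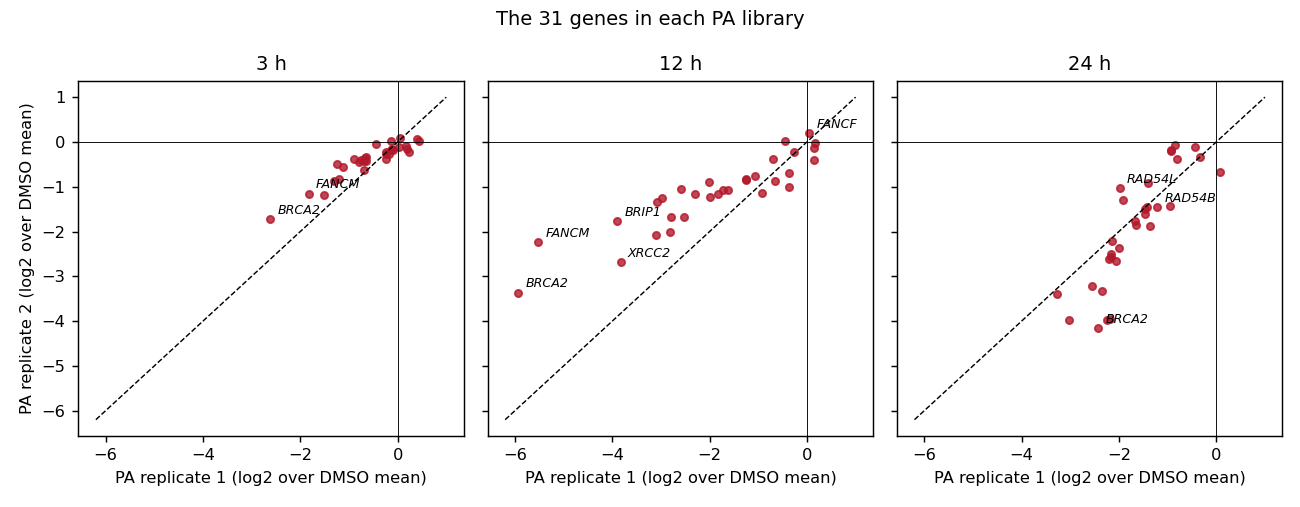
Log2 ratio of each PA library to the DMSO mean of its time, replicate 1 on the horizontal and replicate 2 on the vertical axis, for the 31 genes at 3, 12 and 24 h, with a dashed line of equal values. At 12 h most points lie above the line, with medians of -1.74 in replicate 1 and -1.07 in replicate 2, and at 24 h points lie on both sides.

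Base composition moved with the results. The median GC content of the longest transcript was 42.4% for the 31 genes and 48.8% for all tested genes. Described across genes, which are not independent and share the same libraries, the Spearman correlation of GC content with the change at 12 h was 0.79 over the 31 genes and 0.64 over 15071 tested genes. It was 0.68 and 0.58 at 24 h. Of the 10 genes under 40% GC all were called lower at 12 h, against 62.1% of all tested genes under 40% GC, with medians of -1.84 and -0.93. Between 40% and 45%, 11 of 12 were lower, against 42.4% of all genes there. At 45% to 50%, 0 of 3 were lower (21.2% of all), and at 50% or more 3 of 6 (5.1% of all): FANCA, FANCE and RAD54L. The slope of log2 CPM on GC content, per 10 points, was 0.578 and 0.124 in the PA libraries at 12 h and 0.328 and 0.49 at 24 h. It ran from -0.319 to -0.062 over the DMSO libraries.

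After each library was corrected for its own trend on GC content and transcript length, 25 of the 31 genes were lower at 12 h and 27 at 24 h, against 17.6% and 22.4% of all genes. The median change was then -0.744 at 12 h and -1.24 at 24 h, against 0.0377 and 0.0416 over all genes. Of the genes called before it, 14 of 24 at 12 h and 14 of 25 at 24 h moved by over 1.5-fold, all of them nearer to 0. BRCA2 stood at -3.02 at 12 h (adjusted p = 2.59e-05), XRCC2 at -2.73, FANCM at -2.15 and BRCA1 at -1.83. RAD51C and BARD1 lost their calls at 12 h, and DNA2 stood at -0.571 (adjusted p = 0.00481). Among genes rich in GC the correction went the other way. XRCC3, at 0.07 before it, stood at -0.613 at 12 h (adjusted p = 0.0088) and at -1.13 at 24 h (adjusted p = 6.04e-05). FANCG was called lower at both times, at -0.672 at 12 h (adjusted p = 0.00079) and -1.16 at 24 h (adjusted p = 4.22e-06). FANCE was as well, at -1.24 at 12 h (adjusted p = 0.000192) and -0.938 at 24 h (adjusted p = 0.00118). With the correction RMI2 was also called at 12 h, at -0.62 (adjusted p = 0.0153). RAD51B, RAD51D, FANCC and FANCF were called at no time with it either.

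**Figure D5:**
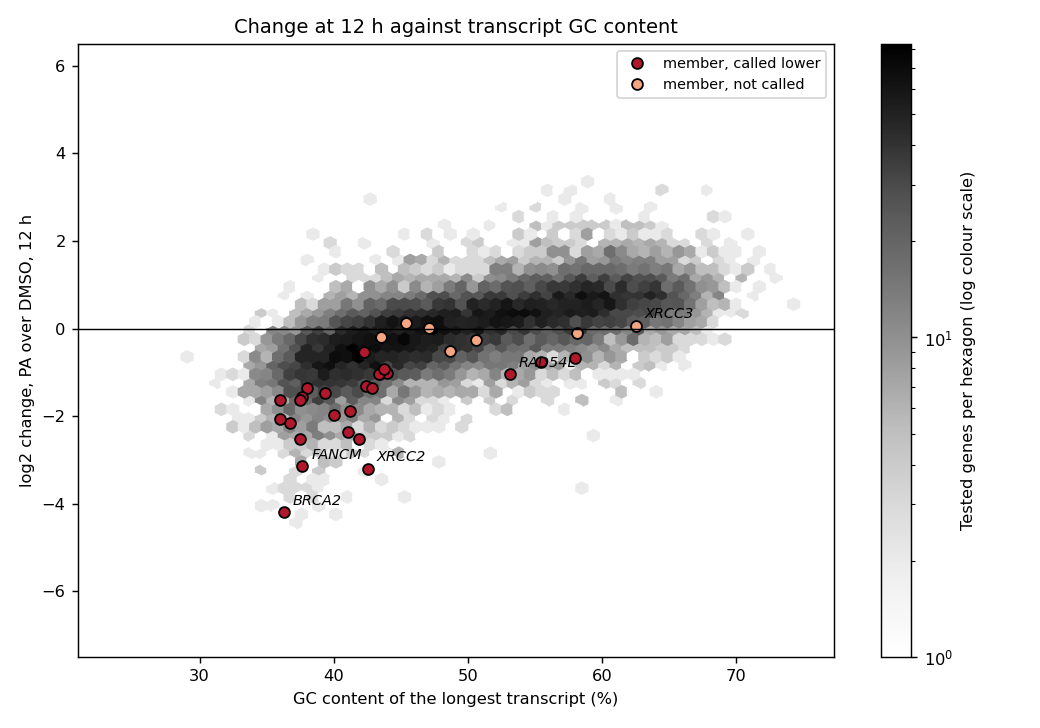
Log2 change with PA over DMSO at 12 h (vertical) against the GC content of the longest transcript in percent (horizontal), with all tested genes as grey hexagons and the 31 genes as circles. The 31 genes and all tested genes both rise from left to right, with Spearman correlations of 0.79 for the 31 and 0.64 for all, and BRCA2, FANCM and XRCC2 lie at the lower edge.

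The share of reads from the mitochondrial genome also differed: it was 6.88 ± 1.23% with PA and 4.55 ± 0.0269% with DMSO at 12 h, and 9.13 ± 1.27% with PA and 5.02 ± 0.372% with DMSO at 24 h (SD, n = 2 each). The summed level of 7 epithelial and ductal markers, with no marker at 0, was 10600 to 15200 CPM with PA and 5180 to 5540 CPM with DMSO at 12 h, and 18300 to 21100 CPM with PA and 6100 to 6130 CPM with DMSO at 24 h. Nearly all of that sum was KRT8, KRT18 and KRT19. SOX9 never exceeded 186 CPM, KRT7 21 CPM, EPCAM 7.79 CPM and CDH1 1.34 CPM. The 6 fibroblast markers summed to 22.8 to 23.4 CPM with PA and 8.43 to 10.7 CPM with DMSO at 12 h, and 20.4 to 20.6 CPM with PA and 12.9 to 13.6 CPM with DMSO at 24 h, nearly all of it COL1A1, while each other marker of that list stayed at or under 0.222 CPM. The 5 leukocyte markers summed to 78.4 to 78.6 CPM with PA and 32 to 38.4 CPM with DMSO at 24 h, of which CD68, which many cells express in lysosomes, reached 77.7 CPM, while PTPRC never exceeded 0.145 CPM. The part of these in the results was not tested.

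Other genes of the same pathways were lower more often than higher, where 24.1% of all genes were lower and 24.4% higher at 12 h, and 27.5% lower and 27.2% higher at 24 h. Of 37 further homologous recombination genes tested, 21 were lower and 2 higher at 12 h (median -0.43), and 25 lower and 5 higher at 24 h (median -0.82). RAD50, the arm of the complex that senses broken ends, had 29.8 and 46.6 CPM in PA cells at 12 h, against 430 and 459 CPM in DMSO cells (-3.54 ± 0.321, adjusted p = 6.88e-06). RAD50 had 75.7 and 45.1 CPM in PA cells at 24 h, against 351 and 448 CPM in DMSO cells (-2.73 ± 0.309, adjusted p = 2e-05). The damage kinase ATM changed by -1.84 ± 0.243 and the replication fork factor MMS22L by -2.18 ± 0.292 at 12 h. At 24 h MCM8, a helicase subunit, changed by -2.49 ± 0.312 and MND1, a cofactor of strand exchange, by -2.05 ± 0.248. Higher were BABAM2 of the BRCA1-A complex (0.85 ± 0.189 at 12 h and 0.57 ± 0.187 at 24 h) and SWSAP1, which acts in recombination (0.99 ± 0.329 at 12 h). At 24 h SEM1, a small acidic partner of BRCA2 and of the proteasome, had 116 and 91.4 CPM in PA cells, against 50.5 and 46.4 CPM in DMSO cells (1.10 ± 0.172, adjusted p = 0.000186), and SWI5 was also higher (0.65 ± 0.18, adjusted p = 0.00754). Thus, against DMSO of the same time, BRCA2 was lower and its partner SEM1 higher in the same libraries at 24 h. In DMSO at 0 h SEM1 had 72.3 and 90.5 CPM, so its DMSO level at 24 h was itself low.

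Of 19 further Fanconi pathway genes tested, 11 were lower and 3 higher at 12 h (median -0.80), and 13 lower and 2 higher at 24 h (median -0.93). Over all genes 24.1% were lower and 24.4% higher at 12 h, and 27.5% lower and 27.2% higher at 24 h. ATAD5, which helps remove PCNA and the FANCD2 ubiquitin mark, had 1.04 and 1.21 CPM in PA cells at 12 h, against 19.9 and 21.6 CPM in DMSO cells (-4.20 ± 0.563, adjusted p = 0.000112). REV3L, the catalytic subunit of polymerase zeta, changed by -2.61 ± 0.373 at 12 h. UHRF1, reported to sense crosslinks, changed by -1.52 ± 0.164 at 12 h and -1.91 ± 0.166 at 24 h. At 24 h the ubiquitin ligase RFWD3 changed by -1.02 ± 0.134 and the nuclease FAN1 by -1.39 ± 0.222. Higher at both times were FAAP20, a core complex partner of FANCA (1.06 ± 0.183 and 1.15 ± 0.182), and the nuclease subunit ERCC1 (0.57 ± 0.175 and 0.85 ± 0.175). MAD2L2, the partner of REV3L, was higher at 12 h (0.67 ± 0.154, adjusted p = 0.00311). It had 50.4 and 38.8 CPM in PA cells, against 28.4 and 27.5 CPM in DMSO cells. In DMSO at 0 h MAD2L2 had 40.5 and 42.0 CPM, so the PA values at 12 h lay on both sides of those at 0 h.

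The genes of the cell cycle phases in which these pathways work also fell. Of 31 S phase genes 25 were lower and 0 higher at 12 h (median -0.77), and 29 lower and 0 higher at 24 h (median -1.32). Of 47 genes of G2 and mitosis 33 were lower and 0 higher at 12 h (median -0.87), and 43 lower and 1 higher at 24 h (median -1.53). The shares of all genes were 24.1% lower and 24.4% higher at 12 h, and 27.5% lower and 27.2% higher at 24 h. MKI67, made by cycling cells, had 179 and 124 CPM in PA cells at 24 h, against 760 and 844 CPM in DMSO cells (-2.40 ± 0.162, adjusted p = 1.19e-06). PCNA, the replication clamp, changed by -0.66 ± 0.177 at 12 h and -1.52 ± 0.18 at 24 h. CDKN1A, which encodes the cell cycle inhibitor p21, had 89.7 and 116 CPM in PA cells at 24 h, against 17.9 and 20.9 CPM in DMSO cells (2.40 ± 0.182, adjusted p = 1.67e-06). In DMSO at 0 h it had 49.6 and 56.4 CPM, so the DMSO level at 24 h was itself low. The part of cell cycle position in the falls of the 31 genes was not tested.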

How the data were processed

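RNA of PANC-1 cells was sequenced as 151-nt read pairs, per the labels. The authors deposited raw counts of reads per gene (28120 genes) and RPKM values (25447 genes). TopHat2, edgeR and GRCh38 are named without versions in the submitters' processing notes, and the counting tool, strand setting and annotation release were not given in the sources used here. Exons of 14 of the 31 genes overlap another gene, 12 of them one on the other strand, so reads may be shared.

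The fit used edgeR 4.0.16 in R 4.3.3 with TMM scaling, filterByExpr by group (15181 genes), and a quasi-likelihood fit of all 14 libraries with 1 mean per group (7 residual degrees of freedom). P-values were two-sided and Benjamini-Hochberg adjusted over all genes, with a threshold of 0.05. The method was also run on simulated data with few changed genes, the same spread in all groups and no trend on GC content. These libraries differ from that in each respect. Depth was 26403984 to 35213154 reads per library.

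GC content and length came from the longest basic transcript in GENCODE 29, and the correction entered each library's spline trend on both (5 degrees of freedom) as an offset. DESeq2 1.42.0, its size factors, no filter or at least 1 CPM in 2 libraries, a replicate block, the libraries of a comparison alone, limma 3.58.1 on log2(RPKM + 1) and log2(RPKM + 0.1), and leaving out each library were the alternatives.

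The 31 genes, the further lists and the motifs were chosen with earlier results of these data known. Of the further homologous recombination and Fanconi genes, the 3 smallest p-values past the threshold in each direction at 12 h and at 24 h were named, and of other lists counts only. Promoters were those of the 3 largest falls and the smallest change at 12 h.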

Additional observations from a re-analysis of the deposited data

Results flagged for a closer look

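The PA effects of 2 genes differed between times in the test of the difference itself. For EXO1, a nuclease of long-range end resection, the log2 change with PA was -1.32 ± 0.18 at 12 h and -0.17 ± 0.177 at 3 h, a difference of -1.154 ± 0.251 (adjusted p = 0.029, edgeR, n = 2 per group). For FANCI, the partner of FANCD2, it was -1.04 ± 0.151 at 12 h and -0.14 ± 0.148 at 3 h, a difference of -0.8967 ± 0.211 (adjusted p = 0.0392). Neither difference passed once any 1 library of PA at 3 h, DMSO at 3 h or DMSO at 12 h was left out, with 0 of the 31 genes called. With a replicate block EXO1 passed (adjusted p = 0.0479) and FANCI did not (adjusted p = 0.061), and with limma on RPKM or with the libraries of the comparison alone neither did. In both genes the PA libraries at 12 h and those at 3 h lay below all DMSO libraries of their own time.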

How the results depend on the processing

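At 12 h 23 to 25 of the 31 genes were called lower under the alternatives that keep all 14 libraries. Over all genes 2612 to 3807 were then lower, of 13091 to 28120 tested. With the 4 libraries of the comparison alone 21 were lower, against 12.1% of all genes. When 1 library was left out, the median change of the 31 genes ran from -1.74 to -1.06. At 24 h 25 to 29 were lower (3303 to 5194 of all genes), and 25 with the 4 libraries alone (29.8%). The median change at 24 h ran from -1.78 to -1.57 when 1 library was left out. Of 1302 single values under the alternatives, 18 falls were no longer called, 53 were newly called and 42 uncalled values changed sign. In 1 gene a call was made with the opposite sign: XRCC3 at 12 h, at 0.07 before, was called lower at -0.613 with the offset for GC content and length and at -0.615 with that offset and a replicate block. The cause was not tested.

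Calls in the same direction over all genes tested are given in brackets, except for fits without 1 library. In such fits of the differences between times, calls over all genes also rose where calls among the 31 genes rose. At 3 h edgeR called 0 of the 31 lower (1.58%), DESeq2 3 (397 of 13945) and no filter 8 (3.05%). The GC and length offset called 4 (2.54%), that offset with the block 3 (336 of 15181) and the 4 libraries alone 10 (6.58%). Leaving out a library moved the median change of the 31 genes at 3 h to between -0.456 and -0.256. For the difference between 12 and 3 h edgeR called 2 lower (0.685%), DESeq2 14 (472 of 12310) and no filter 18 (3.35%). The replicate block gave 1, EXO1 (65 of 15181). Limma gave 0 on log2(RPKM + 1) (77 of 25447) and 0 on log2(RPKM + 0.1) (53 of 25447). The offset gave 13 (3.33%), the offset with the block 10 (449 of 15181) and the libraries alone 0 (0.0271%). Leaving out a library gave 0 to 20, with 20 reached without PA 12 h replicate 2. For the difference between 24 and 12 h edgeR called 0 (0.158% of all genes lower and 0.263% higher). DESeq2 gave 1 lower (65 of 13400) and no filter 3 (0.295%). The offset gave 3 lower (0.863%) and the offset with the block 3 (100 of 15181). Leaving out a library gave 0 to 6 lower (6 without PA 12 h replicate 1) and 0 to 1 higher (1 without PA 12 h replicate 2).

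In DMSO at 12 h against 0 h, edgeR called 0 (1.13% of all genes lower and 0.323% higher). Lower was 1 with the offset (3.52%), 1 with the offset and block (429 of 15181) and 1 with the 4 libraries alone (10.3%). Higher were 1 with no filter (0.957%), 2 with the offset (1.84%) and 2 with the offset and block (207 of 15181). The 4 libraries alone gave 10 higher (9.88%). At 24 h against 0 h, 1 was higher with DESeq2 (226 of 13400), 3 with no filter (0.96%) and 3 with the offset (2.88%). The offset and block gave 3 higher (383 of 15181) and the 4 libraries alone 14 (8.31%). Same-numbered replicates did not deviate together: residual correlations ran from -0.22 to 0.24, and 2 of 21 group pairs exceeded 0.1. The replicate block gave 0, 23 and 25 genes lower with PA at 3, 12 and 24 h, against 210, 3563 and 4039 of all 15181 genes. Few reads stand behind the PA values at 12 h of BRCA2 (10 and 68), FANCM (8 and 94), XRCC2 (21 and 49) and FANCB (25 and 57).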

Other observations

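Genes of other repair pathways were counted in the same way, where 24.1% of all tested genes were lower and 24.4% higher at 12 h, and 27.5% lower and 27.2% higher at 24 h. Of 17 genes of non-homologous end joining tested, 7 were lower and 3 higher with PA at 12 h (median log2 change 0.00137), and 10 lower and 0 higher at 24 h (median -0.44). Of 18 genes of nucleotide excision repair, which removes bulky lesions, 5 were lower and 3 higher at 12 h (median -0.37), and 8 lower and 4 higher at 24 h (median -0.0338); the 12 h share of lower genes is near that of all genes. All 7 mismatch repair genes were tested, of which 5 were lower at 12 h (median -1.04) and 6 at 24 h (median -1.15), with 0 higher. Of 18 regulators of cell cycle transcription, 10 were lower and 2 higher at 12 h (median -0.60), and 11 lower and 1 higher at 24 h (median -0.55). Over all tested genes the medians were 0.00792 at 12 h and -0.00823 at 24 h. Differences between these lists were not tested.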
